A study of Mus musculus with 3 samples.

Results

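Cadherin switching and its repressors were examined in endoderm, mesoderm and epiblast of ICR mouse embryos at embryonic day (E) 7.5. The 10 genes were Cdh1, Cdh2, Cdh11, Epcam, Snai1, Snai2, Twist1, Zeb1, Zeb2 and Vim. They were taken by name, with every probe set that the platform annotation gives to them, which is 23 of 34945 named probe sets and 10 of 18193 genes. A probe set is a group of short probes against the same transcript. Each germ layer was hybridised to 1 Affymetrix array, so the tissue is all that differs by label between the samples. The strain and the stage were shared, and the labels name no treatment or mutant allele. Per the study's methods, the embryonic region was cut off, incubated in trypsin and pancreatin in saline free of calcium and magnesium, and separated by hand. The epiblast sample held the neuroectoderm together with the primitive streak. The sources used here do not give how many embryos each array stands for.

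Epithelial cells are held together by E-cadherin, the product of Cdh1, whose extracellular part binds the same protein on the neighbouring cell in the presence of calcium. During gastrulation epiblast cells pass through the primitive streak, lose E-cadherin contacts and leave as mesoderm, an epithelial-to-mesenchymal transition (EMT) in which N-cadherin, the product of Cdh2, is gained. Zinc finger proteins of the Snail and Zeb families and the basic helix-loop-helix protein Twist1 are known regulators of EMT in general, not each of them at gastrulation. The Snail and Zeb proteins bind E-box letters, CACCTG or its reverse complement CAGGTG, in the promoters of epithelial genes.

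Because these letters are where the repressors meet their targets, the promoter windows of the members are given ahead of the expression values. RefSeq windows (GRCm38.p6) of 300 bases, from 250 before to 50 after the start of transcription, were at hand for Epcam, Snai1, Twist1, Vim and Zeb2, 5 of the 10 members. The general E-box CANNTG, which reads the same on both strands, was searched, and capitals mark each match. Epcam, on chromosome 17, is shown since its window held the repressor form in duplicate, Snai1 on chromosome 2 because it held 1 copy, and Vim on chromosome 2 as a member with none.
Epcam, chr17:87635729-87636028, plus strand: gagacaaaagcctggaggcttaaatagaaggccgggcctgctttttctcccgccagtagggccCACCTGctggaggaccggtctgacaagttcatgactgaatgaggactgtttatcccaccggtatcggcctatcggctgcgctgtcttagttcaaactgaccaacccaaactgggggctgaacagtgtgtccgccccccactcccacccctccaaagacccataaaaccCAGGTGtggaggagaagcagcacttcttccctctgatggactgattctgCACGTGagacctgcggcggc
Snai1, chr2:167537945-167538244, plus strand: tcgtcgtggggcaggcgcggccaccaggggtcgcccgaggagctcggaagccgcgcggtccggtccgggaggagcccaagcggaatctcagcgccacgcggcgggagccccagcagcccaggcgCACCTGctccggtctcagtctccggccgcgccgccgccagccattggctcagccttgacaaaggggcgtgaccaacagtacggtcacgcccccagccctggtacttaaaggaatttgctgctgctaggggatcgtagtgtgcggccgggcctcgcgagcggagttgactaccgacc
Vim, chr2:13574061-13574360, plus strand: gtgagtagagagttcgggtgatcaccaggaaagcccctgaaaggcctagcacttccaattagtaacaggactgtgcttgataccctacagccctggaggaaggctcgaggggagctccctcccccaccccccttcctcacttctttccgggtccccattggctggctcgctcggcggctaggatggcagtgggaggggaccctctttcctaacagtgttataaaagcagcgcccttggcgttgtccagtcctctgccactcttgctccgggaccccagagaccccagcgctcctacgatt

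In the Epcam window CACCTG began 187 bases before the start and CAGGTG 19 bases before it, and an E-box of another form, CACGTG, lay at position 31 of the transcript. These matches did not overlap. CACCTG began 126 bases before the Snai1 start. The windows of Vim, Twist1 and the 4 starts of Zeb2 held no E-box. Of all 32851 windows, 72.3% held an E-box of any form, 20.2% held CACCTG or CAGGTG and 2.88% held that form 2 or more times. These matches are letters and not measured binding.

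The deposited values were intensities on a linear scale. The median of all values, 80.6 (log2 6.33), was taken as a floor below which a value is only a bound. A gene or probe set was counted as differing between layers where its log2 difference reached 1 (2-fold), provided that the highest of its layers was above the floor. With 1 array per layer no difference has a replicate check and no test was possible. The spread between a gene's probe sets, over 5536 genes with several above the floor, was 0.27 (pooled SD of the log2 difference) for mesoderm against epiblast, 0.40 for endoderm against epiblast and 0.39 for endoderm against mesoderm. It is a measurement spread and not a replicate error. Where several probe sets are given, the one with the highest mean log2 stands for the gene.

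The labels of the layers were set against marker lists. All 7 visceral endoderm markers and all 5 definitive endoderm markers were 2-fold or more higher in endoderm than in both other layers, 6 of 7 mesoderm markers were higher in mesoderm than in epiblast, and all 6 epiblast and neuroectoderm markers were lower in mesoderm than in epiblast. In endoderm 4 of those 6 were 2-fold or more lower than in epiblast. Otx2 and Utf1 were lower by less, 1.35-fold and 1.91-fold. Of 6 blood and endothelial markers Gata1 alone was above the floor, at 193 in endoderm, 153 in mesoderm and 153 in epiblast. Of 5 decidual and immune markers Dcn alone passed it, in mesoderm and epiblast. Some markers of other tissues were also highest in the endoderm sample, and others of the same lists were not. The node genes Shh, Foxj1 and Chrd were 2-fold or more higher there than in both other layers. Plac1 of the trophoblast list measured 1138 in endoderm, 305.5 in mesoderm and 68.2 in epiblast. Srgn of the parietal endoderm list measured 875 in endoderm, 60.4 in mesoderm and 57.4 in epiblast. Pth1r of that list measured 1548 in endoderm, 838 in mesoderm and 112 in epiblast. Lamb1 and Sparc of it were highest in endoderm too, by less than 2-fold over mesoderm. Thbd of it was below the floor in endoderm (51.0) and highest in mesoderm (137). Of the trophoblast list Cdx2, Ascl2 and Tfap2c were highest in epiblast, and Elf5 and Tpbpa were below the floor in every layer. The part of such other tissues in the endoderm values of the members was not tested.

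Of the 23 probe sets of the members, 20 were above the floor in at least 1 layer and 3, all for Zeb1, were below it everywhere. Mesoderm was the highest layer for 16 of the 20 and the lowest for 3. The 3 were those of Cdh1 and Epcam, and the only remaining probe set, 1 of 5 for Zeb2, was nearly level. The 10 genes were thus all above the floor in mesoderm, 7 of them in endoderm and 8 in epiblast. Of the probe sets, 20 were above it in mesoderm, 14 in epiblast and 11 in endoderm. Those above it in mesoderm alone, as both of Snai2 were, entered the 20 through that layer and could only have it highest. No share over all probe sets stands beside the 16 of 20, so this count is a description only.

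**Figure D1:**
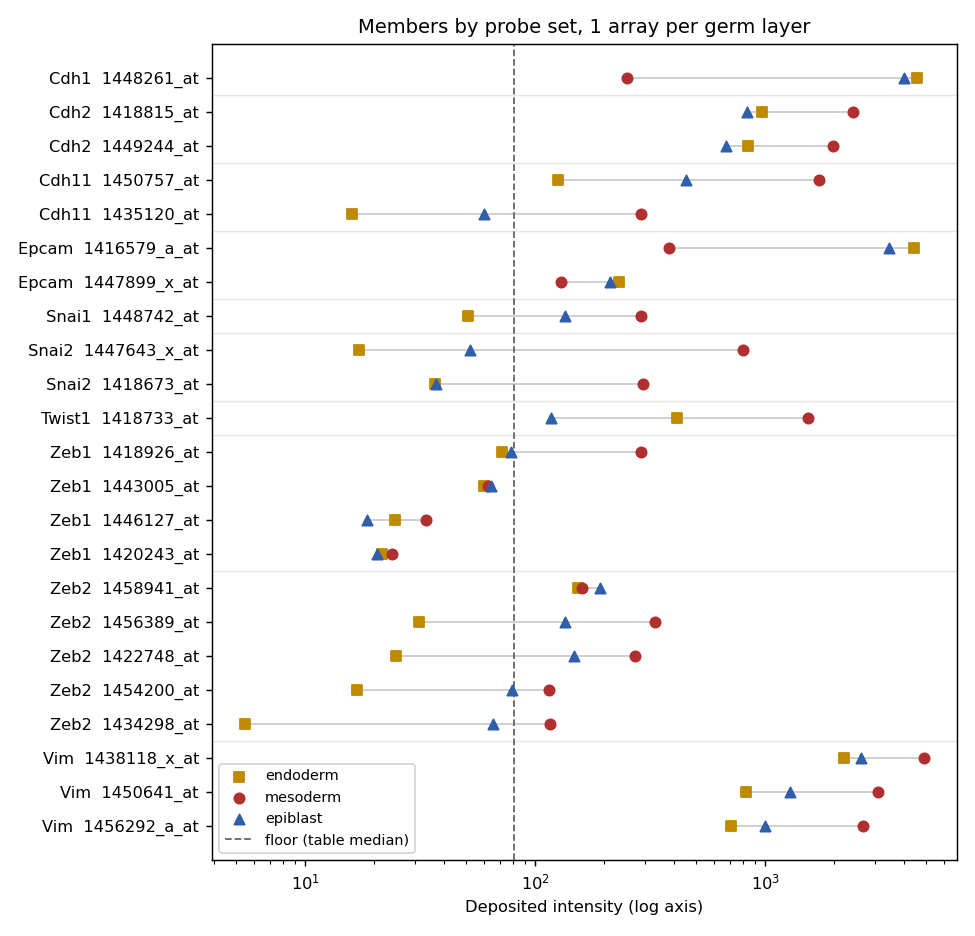
Deposited intensity (log axis) of the 23 probe sets of the members, with 1 point for each germ layer. A dashed line marks the floor, 80.6. Mesoderm lies far to the left for Cdh1 (249.95) and for the brighter Epcam probe set (381), and to the right for the probe sets of Cdh2, Cdh11, Snai1, Snai2, Twist1 and Vim.

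Mesoderm against epiblast sets cells that left through the streak beside an epiblast sample of the same stage. That sample held neuroectoderm and primitive streak, so the pair is not a before and after of the transition. Both epithelial adhesion genes were lower in mesoderm, and 6 of the 8 other genes were at least 2-fold higher. At the level of genes this was 6 of 10 higher, against 3.44% of 12785 genes above the floor, and 2 of 10 lower, against 3.25%. At the level of probe sets 12 of 20 were higher, against 3.24% of 21902, and 2 of 20 lower, against 2.83%. The median log2 difference of the 10 members was 1.32, beside -0.02 over all genes above the floor.

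Cdh1 had a single probe set, with an intensity of 4562 in endoderm, 249.95 in mesoderm and 4021 in epiblast. It was 16.1-fold lower in mesoderm than in epiblast (log2 -4.01), the gene at rank 9 from the lowest of the 12785. Mesoderm held 6.22% of the epiblast level and was still above the floor. In bulk samples fewer cells with a transcript and less of it in each cell cannot be told apart.

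Epcam encodes a membrane glycoprotein of epithelial cells that mediates contacts without calcium. Its brighter probe set measured 4438 in endoderm, 381 in mesoderm and 3456 in epiblast, 9.06-fold lower in mesoderm than in epiblast (log2 -3.18, rank 21 from the lowest). The other Epcam probe set, of the x_at type whose probes can bind other sequences too, was dimmer and varied less, at 230.4 in endoderm, 129.5 in mesoderm and 211 in epiblast, so that mesoderm lay 1.63-fold below epiblast. The direction was shared by both and the size was not, with an SD of 1.75 between them beside the pooled 0.27.

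Transcripts of epiblast genes were also present in the mesoderm sample. Sox2, which encodes a pluripotency and neural factor, stood in mesoderm at 4.28% of its epiblast level, Pou3f1 at 7.99%, Pou5f1 at 37.6%, Otx2 at 46.4% and Utf1 at 47.2%, while Sox3 was below the floor there. Cdh1 stood at 6.22% and Epcam at 11.0%. Of the endoderm markers Cer1 stood in mesoderm at 37.0% of its endoderm level, Sox17 at 2.78%, Apoa1 at 2.41% and Ttr at 1.39%. The other endoderm markers were below the floor in mesoderm. What epiblast or endoderm cells carried over in the dissection add to the mesoderm values of Cdh1 and Epcam was not tested.

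N-cadherin and cadherin 11 went the other way. The brighter Cdh2 probe set measured 966 in endoderm, 2417 in mesoderm and 830.45 in epiblast. The other measured 845 in endoderm, 1963 in mesoderm and 673 in epiblast. The probe sets gave 2.91-fold and 2.92-fold higher levels in mesoderm than in epiblast (log2 1.54 for both). Cdh2 transcripts were thus above the floor in every layer, and mesoderm stood highest.

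Cdh11 encodes a cadherin of mesenchymal cells. Its brighter probe set measured 126 in endoderm, 1711 in mesoderm and 454 in epiblast, 3.77-fold higher in mesoderm than in epiblast. The other measured 16.1 in endoderm, 287 in mesoderm and 59.75 in epiblast, at least 3.56-fold higher. Mesoderm was the highest layer in both probe sets. Epiblast stood over endoderm in the brighter one, while in the other both were below the floor and have no order.

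The Cdh2 to Cdh1 ratio was compared between layers, since levels of different probe sets cannot be set against each other. Their log2 differences between layers can be, but only roughly. The Epcam probe sets gave -3.18 and -0.7 for the same gene, mesoderm against epiblast. The ratio was 46.8-fold higher in mesoderm than in epiblast (log2 5.55) with the brighter Cdh2 probe set and 46.9-fold with the other. Both values rest on the same single Cdh1 probe set, so they are not independent measurements of the ratio. By these probe sets Cdh1 gave the larger share of the change of the ratio, -4.01 against 1.54 for Cdh2. Between endoderm and epiblast the ratio differed by 0.04 and 0.15 on the log2 scale, less than the spread between probe sets.

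Among the repressors, Snai2 and Twist1 had the largest differences. Snai2, the Slug repressor, measured 17.15 in endoderm, 802 in mesoderm and 52.2 in epiblast by 1 probe set, and 36.9 in endoderm, 293 in mesoderm and 37.05 in epiblast by the other. Both were above the floor in mesoderm alone, at least 9.95-fold and at least 3.64-fold over epiblast. The brighter of the pair is an x_at probe set.

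Twist1 had a single probe set, at 413 in endoderm, 1528 in mesoderm and 117 in epiblast. It was 13.1-fold higher in mesoderm than in epiblast (log2 3.71, rank 15 from the highest of the 12785), and all 3 values were above the floor. Snai1, the Snail repressor required for mouse gastrulation, also had a single probe set and a smaller difference. It measured 51.0 in endoderm, 289 in mesoderm and 135 in epiblast, 2.14-fold higher in mesoderm (log2 1.10). An offset of 32 before the log2 put Snai1 at 0.94, under the 2-fold limit.

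Zeb1 rests on 1 of its 4 probe sets. That probe set measured 71.45 in endoderm, 288 in mesoderm and 78.3 in epiblast, above the floor in mesoderm alone and at least 3.58-fold over epiblast. The other 3 lay between 18.6 and 64.2 in all layers, so they measured no difference.

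Zeb2, whose product SIP1 also represses Cdh1, was the member whose probe sets disagreed in direction. The one that stands for the gene measured 154 in endoderm, 160.3 in mesoderm and 190.5 in epiblast, level within 1.23-fold. The 4 others had mesoderm highest and endoderm below the floor, and in 2 of them epiblast was below it too. The brightest of them measured 31.4 in endoderm, 332 in mesoderm and 134 in epiblast. The next measured 24.7 in endoderm, 271 in mesoderm and 147 in epiblast. Their excess in mesoderm over epiblast was 2.47-fold, 1.84-fold, at least 1.42-fold and at least 1.44-fold, so that 1 of 5 probe sets passed the 2-fold limit. By the choice of 1 probe set per gene Zeb2 was slightly lower in mesoderm (log2 -0.25), and by the probe set with the highest single value it was higher (1.31). What sets the level probe set apart from the 4 others was not tested.

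Vim encodes vimentin, the intermediate filament protein of mesenchymal cells. Its 3 probe sets were 2206, 824 and 709 in endoderm, 4882, 3090 and 2653 in mesoderm, and 2612, 1276 and 999 in epiblast. Mesoderm was 1.87-fold, 2.42-fold and 2.66-fold over epiblast, with the smallest excess in the brightest probe set, an x_at one, which stands for the gene and did not reach 2-fold. Vim was well above the floor in all layers, the epiblast and endoderm included.

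**Figure D2:**
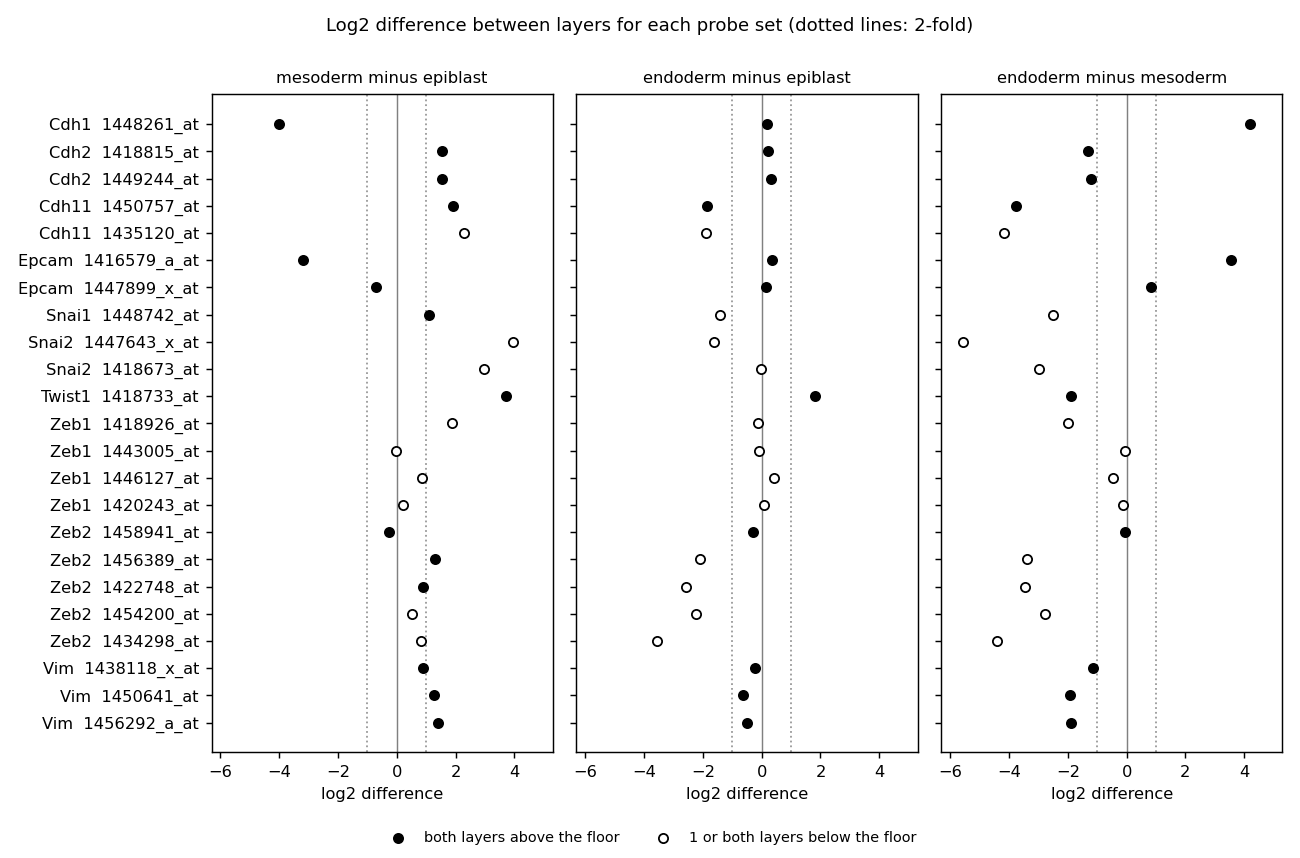
Log2 difference of the 23 probe sets for each pair of layers, with dotted lines at 2-fold. Points right of 0 are higher in the layer that opens the panel title, and filled points have both layers above the floor. For mesoderm minus epiblast Cdh1 lies at -4.01 and Twist1 at 3.71, and for endoderm minus mesoderm 16 of the 20 probe sets above the floor lie at or beyond the lower 2-fold line.

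Endoderm against epiblast asks whether the outer epithelium differs from the layer inside it in the same genes. Cdh1 and Epcam were level, and the repressors did not share a direction. Of the 10 genes 1 was 2-fold or more higher in endoderm, against 12.5% of all genes above the floor, and 3 were lower, against 4.01%. Of the 20 probe sets 1 was higher, against 11.7%, and 8 were lower, against 3.81%. The 8 hold the dimmer Cdh11 probe set, the brighter Snai2 one and the Zeb2 ones with epiblast below the floor. In these both layers were below the floor, so they have no order and the 8 is not a measured excess. With values raised to the floor, only the brighter Cdh11 probe set stayed 2-fold lower. The median of the members was -0.19, beside 0.05 over all genes.

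Cdh1 was 1.13-fold and Epcam 1.28-fold higher in endoderm than in epiblast, log2 0.18 and 0.36, both within the 0.40 spread between probe sets. Cdh2 was within it too, 1.16-fold and 1.26-fold higher. With arrays centred on housekeeping genes these genes stood at 0.63, 0.81 and 0.66, where the median of all genes was 0.50. Of the Vim probe sets, all lower in endoderm as deposited, 2 differed by more than the spread (log2 -0.63 and -0.50) and 1 did not (-0.24, and 0.20 with that centring). Snai1 stood at -0.96 with it, short of 2-fold.

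Twist1 was the gene that was higher in endoderm. It was 3.54-fold above epiblast (log2 1.82), and its endoderm level was 27.0% of that in mesoderm. Mesoderm markers stood lower in the endoderm sample, with Kdr at 6.18% of its mesoderm level, Foxc1 at 14.9%, Foxf1 at 19.6% and Hand2 below the floor. Their summed intensity, over 7 genes, measured 879.1 in endoderm, 8055.0 in mesoderm and 1791.3 in epiblast. Pdgfra, which is on the list of mesenchymal matrix and cytoskeleton genes and not on the marker list, was at 27.7% of its mesoderm level. It measured 982 in endoderm and 658 in epiblast, so it was not low outside mesoderm. The part that mesoderm cells in the endoderm sample had in the Twist1 value was not tested.

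The genes counted lower in endoderm were Cdh11, Snai1 and Snai2. Cdh11 was 3.61-fold lower than in epiblast, with both layers above the floor in its brighter probe set. Snai1 was below the floor in endoderm and at least 1.67-fold lower, and Snai2 was below the floor in both layers, so its order there is not known. With values raised to the floor the count of lower genes was 1 in place of 3. The 4 Zeb2 probe sets that varied were all below the floor in endoderm, between 5.50 and 31.4, and 2 of these had epiblast above the floor, at least 1.67-fold and at least 1.82-fold over endoderm.

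The epiblast level of these genes stood beside that of 5 markers of the primitive streak, which the epiblast sample contained. Mixl1, a homeobox gene of the streak, measured 77.8 in endoderm, 234 in mesoderm and 554 in epiblast. Nkx1-2 measured 165 in endoderm, 349 in mesoderm and 2413 in epiblast. Fgf8 measured 102 in endoderm, 167 in mesoderm and 291 in epiblast. These 3 were highest in epiblast by 2-fold or more over endoderm. Eomes was nearly level between endoderm and epiblast, at 773 in endoderm, 470.2 in mesoderm and 886 in epiblast. Wnt3 was below the floor in every layer. Whether the Snai1, Zeb2 and Cdh11 transcripts of the epiblast sample came from the streak was not tested.

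Endoderm against mesoderm compares an epithelium with mesenchyme. Of the 10 genes 2 were 2-fold or more higher in endoderm, against 11.4% of all genes, and 7 were lower, against 3.86%. Of the 20 probe sets 2 were higher, against 10.1%, and 16 were lower, against 3.84%. The median of the members was -1.61, beside 0.07 over all genes. This comparison shares its arrays with the other pairs and adds no independent sample.

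Cdh1 was 18.3-fold and Epcam 11.6-fold higher in endoderm than in mesoderm, and the x_at probe set of Epcam 1.78-fold. Cdh2 was 2.50-fold lower in endoderm, and 2.32-fold by its other probe set. Cdh11 was 13.6-fold lower, Twist1 3.70-fold and Vim 2.21-fold to 3.75-fold lower. Snai1 was at least 3.58-fold lower, Zeb1 at least 3.58-fold and Snai2 at least 9.95-fold, or at least 3.64-fold by its other probe set. The 4 Zeb2 probe sets that varied were lower in endoderm by at least 4.12-fold, 3.36-fold, 1.42-fold and 1.44-fold.

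**Figure D3:**
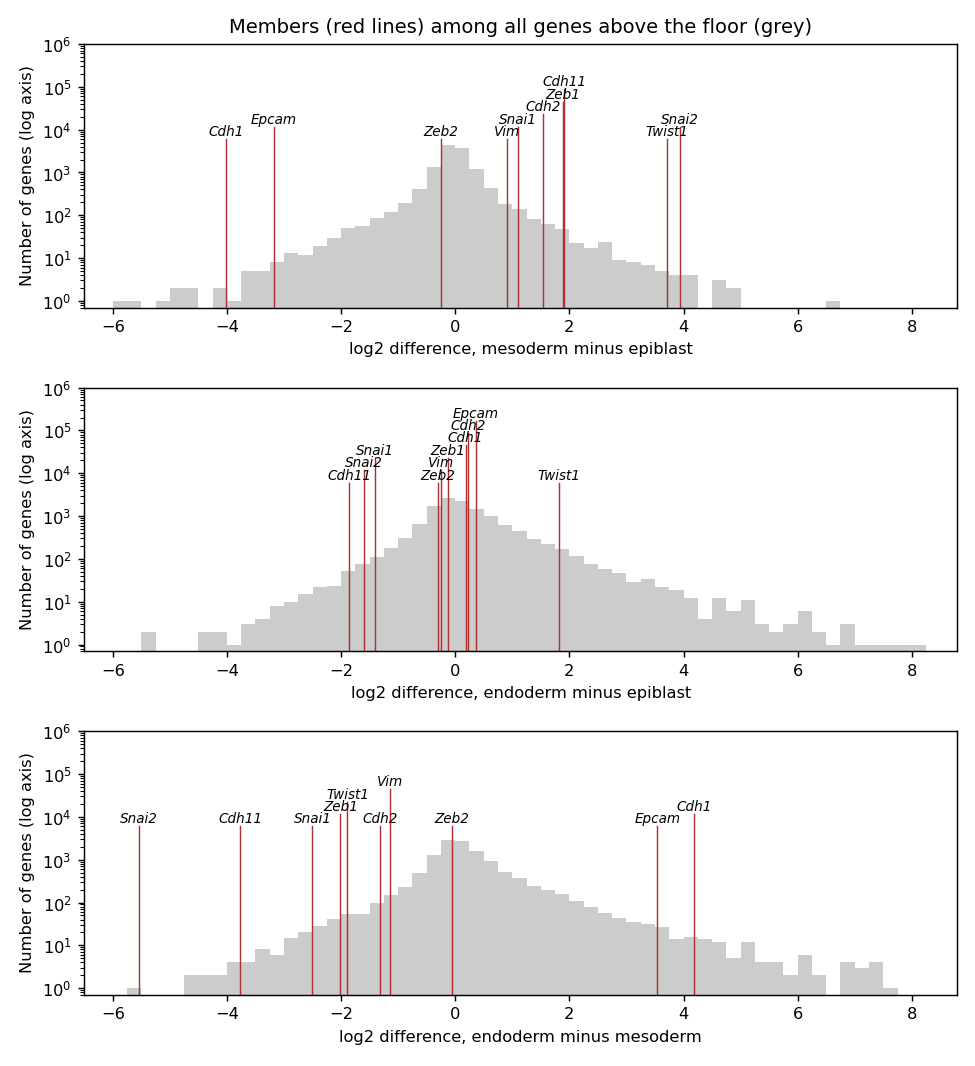
Number of genes (log axis) by log2 difference for each pair of layers over the 12785 genes above the floor, in grey, with the members as red lines at the probe set that stands for each gene. Cdh1 and Epcam lie in the lower tail of mesoderm minus epiblast at -4.01 and -3.18, and near 0 for endoderm minus epiblast at 0.18 and 0.36.

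The order of the layers differed between members. For Cdh1 and Epcam it was endoderm and epiblast, not apart beyond the spread, over mesoderm. For Cdh2 it was mesoderm over endoderm and epiblast, which were again not apart. For Snai1, the brighter Cdh11 probe set and 2 of the 4 varying Zeb2 probe sets it was mesoderm, epiblast, endoderm. In the other Cdh11 probe set and the other 2 of Zeb2 only mesoderm was above the floor. Twist1 alone among the members was ordered mesoderm, endoderm, epiblast with steps of at least 2-fold. Snai2 and Zeb1 were above the floor in mesoderm only.

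The genes most like 4 of the members were found by the distance between log2 profiles over the 3 arrays, raised to the floor and centred, among 2405 other genes with a range of 2-fold or more. For Cdh1 they were Esrp1 (distance 0.27), Eras (0.56) and Epcam (0.62). Esrp1, the epithelial splicing regulator, measured 1508 in endoderm, 94.9 in mesoderm and 1173 in epiblast. For Cdh2 the nearest were Hmga2 (0.01), Zfp365 (0.10) and Kirrel (0.10). Hmga2, an architectural chromatin protein, measured 2349 in endoderm, 5841 in mesoderm and 2003 in epiblast. L1cam (0.02), Tmem88 (0.06) and Ppp1r14a (0.06) were nearest to Snai1, and Clmp (0.04), Aplnr (0.04) and Fgd5 (0.07) to Vim. Profiles of 3 points on shared arrays are easily alike, and these distances are descriptions.

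Gene lists around the members showed which other parts of the adhesion machinery went along. Of 16 other cadherins and desmosomal cadherins above the floor, 4 were 2-fold or more higher and 3 lower in mesoderm than in epiblast. The shares over all genes were 3.44% and 3.25%, and the median of the list was -0.07. Pcdh8, the paraxial protocadherin, measured 325 in endoderm, 1995 in mesoderm and 526 in epiblast. Pcdh19 measured 217 in endoderm, 2918 in mesoderm and 481 in epiblast, 6.07-fold higher in mesoderm than in epiblast. Mesoderm was thus the highest layer for both protocadherins. Pcdh1 measured 420.1 in endoderm, 21.5 in mesoderm and 245 in epiblast, at least 3.03-fold lower in mesoderm. The desmosomal cadherin gene Dsc2 measured 1343 in endoderm, 147 in mesoderm and 194 in epiblast, 6.91-fold higher in endoderm than in epiblast.

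Catenins tie cadherins to actin. Of 16 catenins and junction partners above the floor 1 was higher and 3 were lower in mesoderm than in epiblast, beside 3.44% and 3.25% of all genes, with a median of 0.10. Ctnnb1, which encodes beta-catenin, measured 8351 in endoderm, 8328 in mesoderm and 8365 in epiblast. It was picked for mention after its values had been looked at. Jup, the gene for plakoglobin, measured 675 in endoderm, 134 in mesoderm and 281 in epiblast. Plekha7, a partner of the E-cadherin complex, measured 481 in endoderm, 77.7 in mesoderm and 263 in epiblast. Ctnnd2, the gene for delta-catenin, was below the floor in endoderm and mesoderm and 117 in epiblast. These 3 were the genes counted lower in mesoderm than in epiblast. Dsp, the desmoplakin gene, measured 2523 in endoderm, 1333 in mesoderm and 662 in epiblast, 2.01-fold higher in mesoderm than in epiblast.

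Regulators of the epithelial state were mostly higher in endoderm than in mesoderm. Of 12 above the floor 4 were lower and 1 higher in mesoderm than in epiblast, beside 3.25% and 3.44% of all genes, with a median of -0.74. In endoderm 8 of 12 were higher than in mesoderm, beside 11.4% of all genes, with a median of 1.61. Grhl2, a factor that activates Cdh1, measured 588 in endoderm, 137 in mesoderm and 615 in epiblast, 4.48-fold lower in mesoderm than in epiblast. Rbm47, which was counted lower, measured 973 in endoderm, 44.5 in mesoderm and 90.5 in epiblast, at least 1.12-fold lower, and Elf3 measured 391 in endoderm, 69.97 in mesoderm and 128 in epiblast. Klf4, likewise picked after its values had been looked at, was the gene counted higher, 185 in endoderm, 354 in mesoderm and 126 in epiblast.

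Other transcription factors linked to EMT were higher in mesoderm than in epiblast in 6 of 11 genes and lower in 0, with a median of 1.08. The shares over all genes were 3.44% and 3.25%. Foxc2 measured 226 in endoderm, 2371 in mesoderm and 103 in epiblast. Foxc1, which is also on the list of mesoderm markers, measured 180 in endoderm, 1209 in mesoderm and 149.6 in epiblast. Prrx2 was at least 3.49-fold higher in mesoderm, and Tcf21 at least 10.1-fold. Six2, picked after its values had been looked at, was counted higher at 91.0 in mesoderm, close to the floor and at least 1.13-fold. In endoderm 7 of the 11 were lower than in mesoderm, beside 3.86% of all genes.

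Genes of the mesenchymal matrix and cytoskeleton were higher in mesoderm than in epiblast in 7 of 19 and lower in 0, with a median of 0.67. The shares over all genes were 3.44% and 3.25%. Vcan, the proteoglycan versican, was 4.48-fold higher, Pdgfra 5.39-fold and Col5a2 2.64-fold, and Tnc was at least 1.90-fold higher. Genes known for the transition at gastrulation had 2 of 16 higher, Mesp1 (3.55-fold) and Lhx1 (5.14-fold), and 1 lower, Mixl1 (2.37-fold). These counts stand beside the same shares over all genes, and the median of the list was 0.14. Tbx6, a T-box gene of the streak and paraxial mesoderm, measured 111 in endoderm, 721 in mesoderm and 564 in epiblast.

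Genes for corepressors and turnover of the Snail and Zeb proteins differed by 2-fold between mesoderm and epiblast in 0 of 16 cases, with a median of -0.06. Over all genes 3.44% were higher and 3.25% lower, so a count of 0 among 16 is near these shares and does not set the list apart. Rcor1, the gene for the CoREST subunit, measured 1189 in endoderm, 658 in mesoderm and 425 in epiblast. It was the only 1 of the 16 past the limit in any pair, with endoderm 2.80-fold over epiblast, where 12.5% of all genes were higher. Ctbp2 measured 2200.2 in endoderm, 2938 in mesoderm and 4211 in epiblast. The step between mesoderm and epiblast stayed below 2-fold. Lats2 measured 259 in endoderm, 496 in mesoderm and 256 in epiblast. Suz12 lay between 2037 and 2913. Of 11 housekeeping genes 0 differed by 2-fold in any pair.

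**Figure D4:**
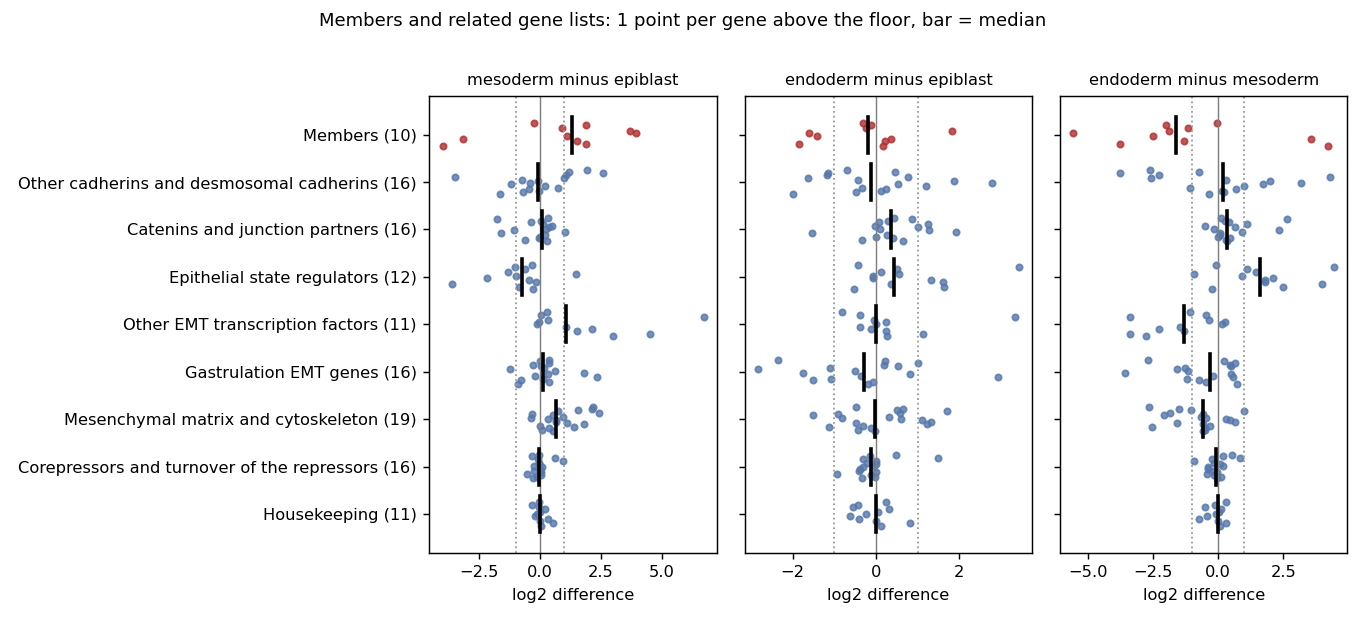
Log2 difference of each gene above the floor (1 point per gene, number in brackets) for the members, 7 related lists and the housekeeping genes, for each pair of layers, with the median as a bar and dotted lines at 2-fold. For mesoderm minus epiblast the members have a median of 1.32, epithelial state regulators -0.74 and corepressor genes -0.06.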

How the data were processed

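Gene expression was measured on 3 arrays, 1 for each germ layer. Per the labels, 100 ng of RNA went into the biotin labelling of each array. Per the methods, the arrays went through Robust Multiarray Average (RMA) with the affy package. The authors deposited linear intensities for 45037 probe sets, with a median of 79.9 in endoderm, 79.9 in mesoderm and 82.2 in epiblast. The usual output of RMA is log2, so a later step, not given in the sources used here, produced this form, and differences between dim probe sets depend on it. The number of arrays limits the precision.

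Probe sets were named from the platform annotation. Of these, 34945 had 1 symbol, 932 had several and 9160 were not named, and 34741 matched the RefSeq gene table by Entrez identifier, with 0 symbols altered. Differences between layers were taken on log2 intensities with Python 3.11.15, pandas 2.3.3 and numpy 2.4.6. The alternative normalizations were made with limma 3.58.1 in R 4.3.3. Significance Analysis of Microarrays, which the methods name, needs replicates and was not run. The call rule was tested on simulated data, with changes placed only in probe sets clear of the floor. This checked the code and not the calls made here.

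The members, the gene lists and the limits were chosen with earlier results of these data known. The text names all members with every probe set, up to 4 genes of each list with the largest range, the 3 nearest genes of Cdh1, Cdh2, Snai1 and Vim, and markers beside a result. Entries of the lists that had no named probe set are not reported here. Alternatives were a floor at the 75th percentile, dim values raised to the floor, a 3-fold limit, other choices or the mean of probe sets, quantile and cyclic loess normalization, centring on housekeeping genes and an offset of 32.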

Additional observations from a re-analysis of the deposited data

How the results depend on the processing

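Over 11 alternatives the number of members higher in mesoderm than in epiblast lay between 4 and 7 and the number lower was 2 throughout. Over all genes above the floor, 440 of 12785 were higher and 415 lower as deposited. With a 3-fold limit these were 181 and 193, and with housekeeping centring 565 and 309 of 12971. With the mean of probe sets the number of members higher stayed at 6, but Zeb1 (log2 0.73) left the count and Vim (1.20) entered it. The number lower in endoderm than in epiblast was 3 as deposited, 1 after raising dim values to the floor, 2 with a 3-fold limit, housekeeping centring, the offset or no x_at probe sets, and 4 with the probe set of highest single value. Over all genes that number was 513 of 12785 as deposited, 405 after raising dim values and 182 with a 3-fold limit. It was 246 of 12971 with housekeeping centring, 377 of 12788 with the offset and 547 of 12809 with the highest single value. Of the genes of the related lists, with a 3-fold limit 12 in place of 21 were higher and 6 in place of 11 lower in mesoderm than in epiblast, 9 in place of 20 higher and 5 in place of 13 lower in endoderm than in epiblast, and 16 in place of 25 lower in endoderm than in mesoderm. Over all genes a 3-fold limit left 774 in place of 1598 higher in endoderm than in epiblast, and 220 in place of 493 lower in endoderm than in mesoderm. With the mean of probe sets 6 genes of the related lists were lower in mesoderm than in epiblast, beside 337 of 11592 over all genes. After raising dim values to the floor, and with centring on housekeeping genes, 8 genes of these lists were lower in endoderm than in epiblast.

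No called difference of a member changed sign. Among the members the widest range was that of Zeb2 for endoderm minus mesoderm, from -3.40 to 0.19, followed by Snai2 for the same pair, from -5.59 to -2.99. Zeb2 ranged from -2.16 to 0.14 for endoderm minus epiblast and from -0.26 to 1.31 for mesoderm minus epiblast. Epcam ranged from 2.19 to 3.79 for endoderm minus mesoderm, and Zeb1 from 0.73 to 2.08 for mesoderm minus epiblast. Centring on the housekeeping median put the median of all genes at 0.50 in place of 0.05 for endoderm minus epiblast, with 92.4% of the differing genes higher in place of 75.7%, and quantile normalization put it at -0.11 with 64.3% higher. For endoderm minus mesoderm the shares were 85.6% with the housekeeping median, 65.8% with quantiles and 74.7% as deposited, and for mesoderm minus epiblast the housekeeping median gave 64.6% in place of 51.5%. The probe set with the highest single value, and leaving out x_at probe sets, were chosen after seeing the data. No paired analysis was possible because each layer has 1 array, and for the same reason no replicate could be left out. Values below the floor of 80.6 limit what can be said of Snai1, Snai2, Zeb1 and Zeb2 outside mesoderm.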

Other observations

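The repressor form of the E-box, CACCTG or CAGGTG, was counted over the promoter windows of genes that differed between layers. It was present in 34.4% of 448 windows of genes whose mesoderm level was below that of epiblast by 2-fold or more, in 15.1% of 444 windows of genes above it by 2-fold or more, and in 18.9% of 13218 windows of all genes above the floor. The form occurred 2 or more times in 8.04% of the windows of lower genes, in 0.901% of those of higher genes and in 2.68% of those of all genes above the floor. Another E-box form, CAGCTG, was in 18.3%, 20.5% and 15.6% of the same windows, and their median GC content was 60.5%, 62.3% and 60.7%. CAGCTG is a single word, while the repressor form counts both CACCTG and CAGGTG, so the base levels are unlike. Over all 32851 windows CAGCTG was in 16.3% and the repressor form in 20.2%. Counted by gene, with any window, the repressor form was found for 42.7% of 321 lower genes, 18.9% of 328 higher genes and 21.9% of 10329 genes above the floor. For genes with endoderm over mesoderm by 2-fold or more the share of windows was 27.4%, and for those lower it was 14.0%. Between endoderm and epiblast the shares were 22.5% for higher and 21.7% for lower genes. These shares are descriptions with no test, and the comparisons share arrays and genes. Which proteins bind these letters was not tested.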
